A study of Mus musculus and Sus scrofa with 12 samples.

Results

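The apical ectodermal ridge genes described here are 4 ligands of the fibroblast growth factor (FGF) family, Fgf4, Fgf8, Fgf9 and Fgf17, and 2 zinc finger transcription factors of the Sp family, Sp6 and Sp8. They were chosen by name as genes of the ridge, and every histone peak at their transcription start sites (TSSs) and within 200 kb was read in mouse and in pig. All 6 were found among 21774 mouse and 19560 pig protein-coding genes on assembled chromosomes, and all 6 are among 14777 orthologs that share a symbol. The samples were whole forelimbs of wild-type littermates from natural mating, taken from mouse embryos at E11.5 and from pig embryos at day 23 of gestation, with no treatment. The 3 histone modifications H3K4me3, H3K27ac and H3K4me1 were mapped by ChIPmentation, a chromatin immunoprecipitation in which a transposase adds the sequencing adapters. The labels name 2 biological replicates for each species and mark, 12 samples in all, but the series' design text gives a single biological replicate for pig H3K4me1. The authors deposited 1 consensus peak list per species and mark, 6 lists in all, holding positions only. No height, no value per replicate and no sequencing depth was given, so no difference between the species could be set against a spread and none was tested.

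The ridge is a thin rim of ectoderm along the distal edge of the limb bud, and its FGFs keep the underlying mesenchyme growing. In the mouse, Fgf8 is made along the whole ridge while Fgf4, Fgf9 and Fgf17 are made mainly in its posterior and distal part, and Sp6 and Sp8 act in the limb ectoderm upstream of Fgf8. H3K4me3 is a mark of promoters, H3K27ac is found at promoters and enhancers that are in use, and H3K4me1 is spread over enhancers, used or not, and around promoters. Ridge cells are a small minority of a forelimb, and in such bulk chromatin fewer cells with a mark and less of the mark per cell cannot be told apart.

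The sequences that carry the comparison of distal elements are shown first. For each gene, the best-scoring pig match of every mouse distal peak was found, and the longest of those that lay in pig H3K4me1 and touched no exon was taken, and its most alike window of 150 aligned columns was cut out. The pairs of Fgf8, Sp8 and Sp6 had the fewest differing columns, 2, 3 and 4. They are printed 5′ to 3′ in the direction in which the gene is transcribed, and capitals mark the bases that differ between the species. The Fgf8 pair lay between Fgf8 and Fbxw4, 7.54 kb downstream of the mouse 5′ end at chr19:45735331-45735480 (GRCm38, minus strand) and 8.01 kb downstream of the pig 5′ end at chr14:112806137-112806286 (Sscrofa11.1, minus strand).
mouse Fgf8 element: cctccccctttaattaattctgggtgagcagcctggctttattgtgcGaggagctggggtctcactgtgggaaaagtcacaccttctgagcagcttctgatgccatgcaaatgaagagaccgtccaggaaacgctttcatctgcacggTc
pig FGF8 element: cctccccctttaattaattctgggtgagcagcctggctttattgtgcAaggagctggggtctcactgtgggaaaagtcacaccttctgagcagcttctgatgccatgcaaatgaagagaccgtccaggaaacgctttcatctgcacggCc
The Sp8 pair was intergenic, 143 kb upstream in mouse at chr12:118703239-118703388 (plus strand) and 186 kb upstream in pig at chr9:89953121-89953270 (minus strand).
mouse Sp8 element: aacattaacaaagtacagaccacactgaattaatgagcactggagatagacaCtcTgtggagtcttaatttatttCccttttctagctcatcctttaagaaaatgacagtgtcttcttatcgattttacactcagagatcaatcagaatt
pig SP8 element: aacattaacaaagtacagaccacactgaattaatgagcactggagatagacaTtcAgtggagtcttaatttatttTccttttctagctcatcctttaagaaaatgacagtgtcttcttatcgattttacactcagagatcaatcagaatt
The Sp6 pair was intergenic, 128 kb upstream in mouse at chr11:96885931-96886080 (plus strand) and 151 kb upstream in pig at chr12:24258100-24258249 (minus strand).
mouse Sp6 element: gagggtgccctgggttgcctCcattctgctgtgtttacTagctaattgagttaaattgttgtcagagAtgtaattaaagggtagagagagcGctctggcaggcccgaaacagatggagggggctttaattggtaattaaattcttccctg
pig SP6 element: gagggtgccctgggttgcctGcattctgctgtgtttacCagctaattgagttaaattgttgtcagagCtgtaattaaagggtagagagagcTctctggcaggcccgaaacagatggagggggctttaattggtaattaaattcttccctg
In the mouse the 3 windows carried H3K4me1 without the other marks. In the pig the Fgf8 and Sp8 windows also carried H3K4me1 alone, while the Sp6 window carried H3K4me3, H3K27ac and H3K4me1. The whole matches were 1313 bp at 74.9% identity for Fgf8, 985 bp at 91.5% for Sp8 and 728 bp at 76.1% for Sp6. The letters TAATTA, the core that many homeodomain proteins bind, were in 2 of the 6 window pairs, those of Fgf8 and Sp6, in both species, and not in those of Sp8, Fgf4, Fgf9 or Fgf17. Windows of 150 bases at the centres of all distal H3K4me1 peaks held these letters at 5.02% of the mouse peaks and 4.04% of the pig peaks. Those windows were not chosen for likeness between the species, as the window pairs were, so the shares are not like for like. A match of letters says nothing of binding.

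Promoter sequence is shown for 1 gene without and 1 gene with H3K4me3. RefSeq promoter windows of 250 bases before to 50 after a start (build GRCm38.p6) were matched for Fgf4, Fgf9 and Sp8, and pig windows of the same size were cut at the annotated 5′ ends of the same 3 genes. Capitals mark matches, on either strand, to the TATA box (TATAAA), the GC box (GGGCGG), the box spelled CCAAT, the TCF/LEF core (CTTTGA) and the homeodomain core (TAATTA), which overlapped nowhere in the windows shown.
mouse Fgf4 promoter, chr7:144861136-144861435, plus strand: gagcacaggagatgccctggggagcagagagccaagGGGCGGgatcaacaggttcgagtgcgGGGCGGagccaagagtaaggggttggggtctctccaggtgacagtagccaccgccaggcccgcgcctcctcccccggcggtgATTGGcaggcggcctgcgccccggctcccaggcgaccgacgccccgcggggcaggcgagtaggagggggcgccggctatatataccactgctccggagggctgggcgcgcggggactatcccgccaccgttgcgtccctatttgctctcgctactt
mouse Sp8 promoter of the start at +945 bp, chr12:118846983-118847282, plus strand: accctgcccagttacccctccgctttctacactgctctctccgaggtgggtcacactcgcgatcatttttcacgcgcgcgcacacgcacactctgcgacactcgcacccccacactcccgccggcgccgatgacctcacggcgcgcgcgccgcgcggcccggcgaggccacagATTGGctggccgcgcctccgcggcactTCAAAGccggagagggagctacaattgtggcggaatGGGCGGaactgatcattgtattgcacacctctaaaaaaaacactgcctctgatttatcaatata
pig SP8 promoter, chr9:89767379-89767678, minus strand: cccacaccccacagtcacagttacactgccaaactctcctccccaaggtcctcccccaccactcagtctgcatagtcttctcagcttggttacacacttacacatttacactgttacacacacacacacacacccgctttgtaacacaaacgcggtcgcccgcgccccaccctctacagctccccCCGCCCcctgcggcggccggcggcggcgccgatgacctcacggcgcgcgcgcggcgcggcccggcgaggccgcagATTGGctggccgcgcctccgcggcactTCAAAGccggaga
The Fgf4 promoter, which had no H3K4me3 peak, held 69.7% G and C and a ratio of observed to expected CpG of 0.774, above the medians of 56.3% and 0.567 over 21255 mouse promoter windows. The pig FGF4 window had 79.0% G and C and a CpG ratio of 0.935, against medians of 58.7% and 0.649 over 19556 pig windows. The mouse Fgf4 start matched 119 bp upstream of the annotated pig start, so the mouse and pig windows do not cover the same stretch. The mouse Sp8 window shown lay inside the H3K4me3 peak and had a CpG ratio of 1.19. Of the other mouse Sp8 windows, that of the start at +1271 bp, also inside the peak, had 0.476 and that of the start at +41 bp, outside it, had 0.157, both under the median. The pig SP8 window had 1.03 and lay upstream of the pig H3K4me3 peak, which begins 331 bp downstream of the start. For Fgf9 the CpG ratio was 0.880 in the mouse window, that of the start at +2015 bp, and 0.485 in the pig window. These values were above and below the median of their species. The mouse start at +2015 bp matched 216 bp upstream of the pig start, so the 2 windows hold largely different sequence. GGGCGG, the GC box that Sp proteins can bind, was found in the Fgf4 and Sp8 windows shown and in 46.2% of mouse and 50.6% of pig windows. It was not in the mouse Sp8 windows at +41 and +1271 bp or in the Fgf9 window of either species. CCAAT was also in all 3 windows shown and is in 38.2% of mouse and 35.4% of pig windows. It was not in the mouse Sp8 window at +1271 bp, the pig FGF4 window or the Fgf9 window of either species. CTTTGA, the core of sites bound by the TCF/LEF factors of Wnt signalling, was in the Sp8 windows shown of both species and not in the mouse windows at +41 and +1271 bp or in the Fgf4 window. It is in 14.4% of mouse and 12.3% of pig windows.

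At their starts the 6 genes fell into like classes in mouse and pig when peaks up to 1 kb away were counted. A mark was scored at a gene if 1 bp or more of a peak fell in the 1 kb on either side of any annotated TSS. H3K4me3 was present at 4 of 6 genes in mouse, where 65.0% of all genes had it, and at the same 4 in pig, where 67.7% had it: Fgf8, Fgf9, Sp6 and Sp8. H3K27ac was present at Fgf9 and Sp8 in both species, 2 of 6, against 41.6% of mouse and 48.8% of pig genes. H3K4me1 was present at 5 of 6 genes in mouse, all but Fgf8, against 54.7% of genes, and at 4 of 6 in pig, all but FGF8 and SP6, against 63.9%. The full state of the 3 marks was the same in both species for 5 of the 6 genes, and for 48.8% of all orthologs. That count depends on the window. With 0.5 kb the state was the same for Fgf4 and Fgf8 alone, 2 of 6, against 43.3% of orthologs, and with 2.5 kb it was the same for 6 of 6, against 55.7%. Fgf4 and Fgf17 had H3K4me1 alone in both species, a state shared by 2.17% of orthologs, and Fgf9 and Sp8 had all 3 marks in both, a state shared by 26.3%.

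**Figure D1:**
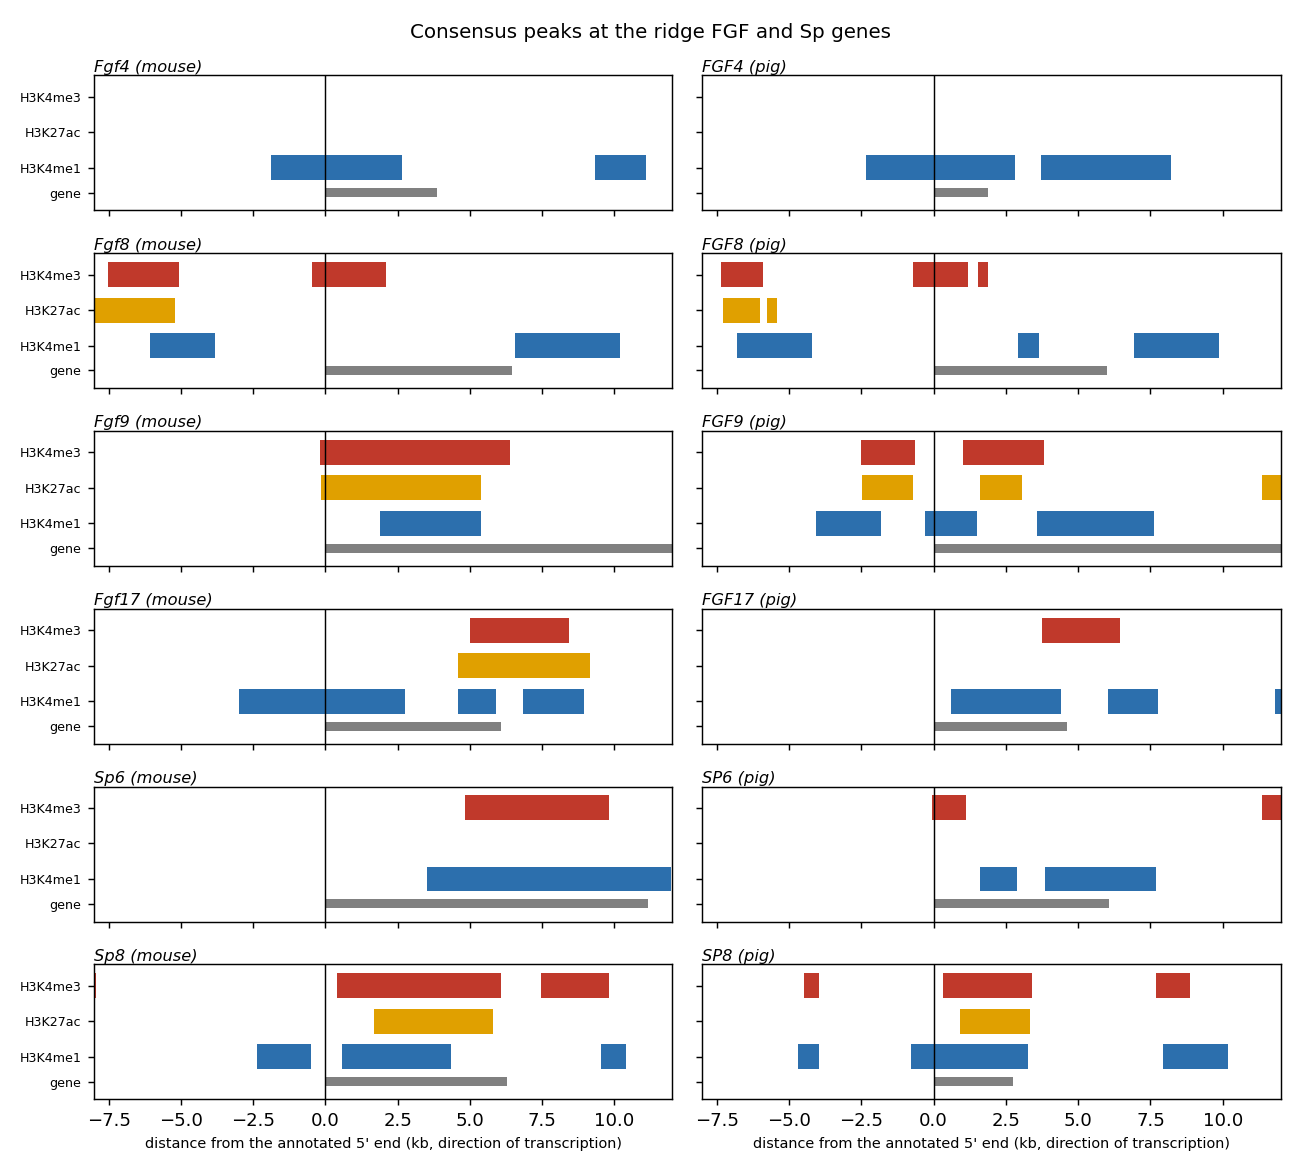
Peaks of H3K4me3 (red), H3K27ac (yellow) and H3K4me1 (blue) around the 6 genes in mouse (left) and pig (right), with the gene body in grey and distance from the annotated 5′ end in kb on the horizontal axis. Fgf4 has H3K4me1 alone, Fgf8 has H3K4me3 and no H3K27ac over its body, and Fgf9 and Sp8 have all 3 marks in both species.

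Fgf8, the main ridge FGF, had H3K4me3 at its start without H3K27ac in either species. The mouse peak ran from 477 bp upstream to 2102 bp downstream of the 5′ end, 2580 bp in all. Among mouse genes with the mark, whose median widest peak was 3502 bp, 8.14% had a narrower one. The pig peak ran from 698 bp upstream to 1203 bp downstream and was 1902 bp wide, near the pig median of 1910 bp. A second pig H3K4me3 peak of 323 bp lay 1.71 kb downstream in an intron. The nearest H3K27ac was 5.21 kb away in mouse and 5.43 kb away in pig, on the side of the neighbour Npm3, whose 5′ end is 6.62 kb upstream in mouse and 8.02 kb upstream in pig and which had H3K4me3 and H3K27ac of its own in both species. The nearest H3K4me1 was 3.81 kb away in mouse and 2.92 kb away in pig. H3K4me3 without H3K27ac in both species was found at 15.0% of orthologs.

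Fgf4, a ridge ligand that overlaps in function with Fgf8, lay under a single broad H3K4me1 peak in each species. That peak ran from 1870 bp upstream to 2658 bp downstream in mouse, over 4529 bp, and from 2326 bp upstream to 2815 bp downstream in pig, over 5142 bp. It therefore covered most of the 3860 bp mouse gene and all of the 1899 bp pig gene. The nearest H3K4me3 was 20.8 kb away in mouse and 55.1 kb away in pig, and the nearest H3K27ac was 65.1 kb and 55.1 kb away. The pig peaks nearest to FGF4 lay at the TSS of FGF19, 55.9 kb downstream, and the mouse H3K4me3 peak lay at Fgf3, whose 5′ end is 22.8 kb upstream.

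Fgf9, a ridge ligand also made in several other embryonic epithelia, had all 3 marks in both species. The mouse H3K4me3 peak spanned 6561 bp from 171 bp upstream to 6389 bp downstream of the 5′ end and ranked 73 of 14158 marked genes by width. The mouse H3K27ac peak over the same stretch was 5530 bp wide, wider than that of 95.6% of genes with the mark. In the pig, H3K4me3 was split into a peak of 1868 bp from 2493 to 626 bp upstream and a peak of 2778 bp centred 2.42 kb downstream of the annotated 5′ end. The pig H3K27ac peaks lay in the same places, and H3K4me1 ran across the annotated start from 279 bp upstream to 1505 bp downstream. The mouse 5′ end matched pig sequence 2087 bp upstream of the annotated pig start, inside the upstream pig H3K4me3 peak. The mouse start at +2015 bp matched 216 bp upstream of the annotated pig start.

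Fgf17, a close relative of Fgf8, had H3K4me1 alone. The mouse peak spanned 5738 bp, from 2988 bp upstream to 2749 bp downstream, and was wider than that of 93.3% of genes with the mark. The pig peak was 3797 bp wide and began 614 bp downstream of the annotated start, to which the mouse 5′ end maps 1358 bp upstream. The nearest H3K4me3, 5.00 kb downstream in mouse and 3.75 kb downstream in pig, lay at the start of Dmtn, whose 5′ end is 6.22 kb and 4.80 kb away. H3K27ac was 4.57 kb away in mouse, also at Dmtn, and 25.8 kb away in pig, where DMTN had H3K4me3 and H3K4me1 without it.

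Sp6 had H3K4me3 without H3K27ac in both species and differed only in H3K4me1. Mouse Sp6 has a pair of annotated starts 5173 bp apart, and the mouse H3K4me3 peak of 4993 bp covered the downstream one, from 4823 to 9815 bp after the 5′ end. That downstream start matched pig sequence 21 bp upstream of the single annotated pig start, which lay in a pig H3K4me3 peak of 1191 bp. The upstream mouse start matched a position 4702 bp upstream of the pig start. Mouse H3K4me1 covered the downstream start with a peak of 8456 bp that ranked 60 of 11903 genes with the mark. The nearest pig H3K4me1 peak began 1605 bp downstream of the pig start, so the gene counted as marked with a window of 2.5 kb and not with the window of 1 kb. The nearest H3K27ac was 11.3 kb from a start in mouse and 14.8 kb in pig, both on the side of Scrn2.

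Sp8 had all 3 marks in both species, arranged alike over the gene body. The mouse H3K4me3 peak ran from 390 to 6090 bp downstream of the 5′ end, was 5701 bp wide and ranked 213 of 14158. The pig peak ran from 331 to 3397 bp downstream and was 3067 bp wide, wider than that of 93.7% of pig genes with the mark. H3K27ac covered 4104 bp from 1698 bp downstream in mouse and 2437 bp from 909 bp downstream in pig. Pig SP8 and FGF9 were scored for H3K27ac through peaks 0.909 and 0.711 kb from the annotated start, and neither counted with a window of 0.5 kb. The annotated pig SP8 start corresponds to a mouse start at +865 bp, which mapped to 7 bp downstream of it, whereas the mouse 5′ end maps 1062 bp upstream. Sp8 was flanked by further H3K4me3 peaks away from any annotated TSS, centred 9.20 kb upstream and 8.64 kb downstream in mouse and 4.22 kb upstream and 8.29 kb downstream in pig.

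Within 200 kb on each side, the genes lay in more H3K4me1 than the median gene, except Sp8. Summed over the 6 genes, these neighbourhoods held 57 peaks of H3K4me3, 39 of H3K27ac and 130 of H3K4me1 in mouse, and 53, 51 and 176 in pig. The mean share of the 400 kb covered by H3K4me1 was 18.8% in mouse and 25.7% in pig, and the medians over all genes were 12.3% and 16.7%. Sp6 had the highest mouse share, 28.0%, and FGF9 and FGF4 the highest pig shares, 34.8% and 34.7%. Sp8 had the lowest in both species, 7.30% in mouse and 8.41% in pig. A neighbourhood holds the peaks of other genes too, from 1 other gene's 5′ end at mouse Sp8 to 13 at mouse Fgf17 and Sp6, and none of its peaks is assigned to a gene by distance.

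Distal peaks, which lay more than 1 kb from every annotated TSS and off every H3K4me3 peak, were mostly H3K4me1. The same held for the whole lists. They had 49145 distal H3K4me1 and 10295 distal H3K27ac peaks in mouse, and 81657 and 15682 in pig. Distal H3K27ac peaks numbered 18 over the 6 mouse neighbourhoods and 25 over the 6 pig ones, with a median of 3 per gene in each species against 2 over all genes. In mouse there were 3 at Fgf4, 2 at Fgf8, 5 at Fgf9, 3 at Fgf17, 1 at Sp6 and 4 at Sp8. In pig there were 3 at FGF4, 3 at FGF8, 9 at FGF9, 2 at FGF17, 7 at SP6 and 1 at SP8. Fgf9 had the most of the 6 in both species, more than 89.2% of mouse and 94.9% of pig genes, while Sp6 and Sp8 changed places between the species. Distal H3K4me1 peaks numbered 71 in mouse and 120 in pig, with medians of 10.5 and 20.5 per gene against 7 and 12 over all genes. Fgf8 had the most in mouse with 19, more than 96.1% of genes, and FGF9 the most in pig with 35, more than 98.4%. Of the distal H3K27ac peaks, 6 of 18 overlapped H3K4me1 in mouse and 17 of 25 in pig. Over all distal H3K27ac peaks the share was 47.9% in mouse and 72.2% in pig, so the lists as a whole differed in the same direction.

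Sequence matches to the other species' locus were sought for every distal peak with blastn. Of the 18 mouse distal H3K27ac peaks, 6 matched the pig locus, none of them in pig H3K27ac and 4 in pig H3K27ac or H3K4me1. Of the 25 pig distal H3K27ac peaks, 7 matched the mouse locus and 1 of the matches lay in mouse H3K27ac. That one was a 1643 bp peak 15.6 kb downstream of SP6 in the SCRN2 gene. Its match of 803 bp at 75.7% identity lay in the mouse H3K27ac peak scored at the Scrn2 TSS. The match was centred 19.6 kb downstream of the mouse Sp6 5′ end, and the Scrn2 5′ end lies 16.3 kb downstream of it. Of the 71 mouse distal H3K4me1 peaks, 51 matched and 32 had a match in pig H3K4me1. Of the 120 pig peaks, 71 matched and 38 had a match in mouse H3K4me1. For comparison, each locus pair was also aligned as a whole. Aligned segments that lay in mouse H3K27ac or H3K4me1 were in one of the same marks in pig in 150 of 258 cases, 58.1%, and aligned segments outside these mouse marks in 118 of 444, 26.6%. Segments at TSSs and in exons of any gene in the locus were included, so these shares are not of distal elements alone. Segments of a locus are neighbours in 1 genome and share 1 consensus list, so the shares are a description.

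**Figure D2:**
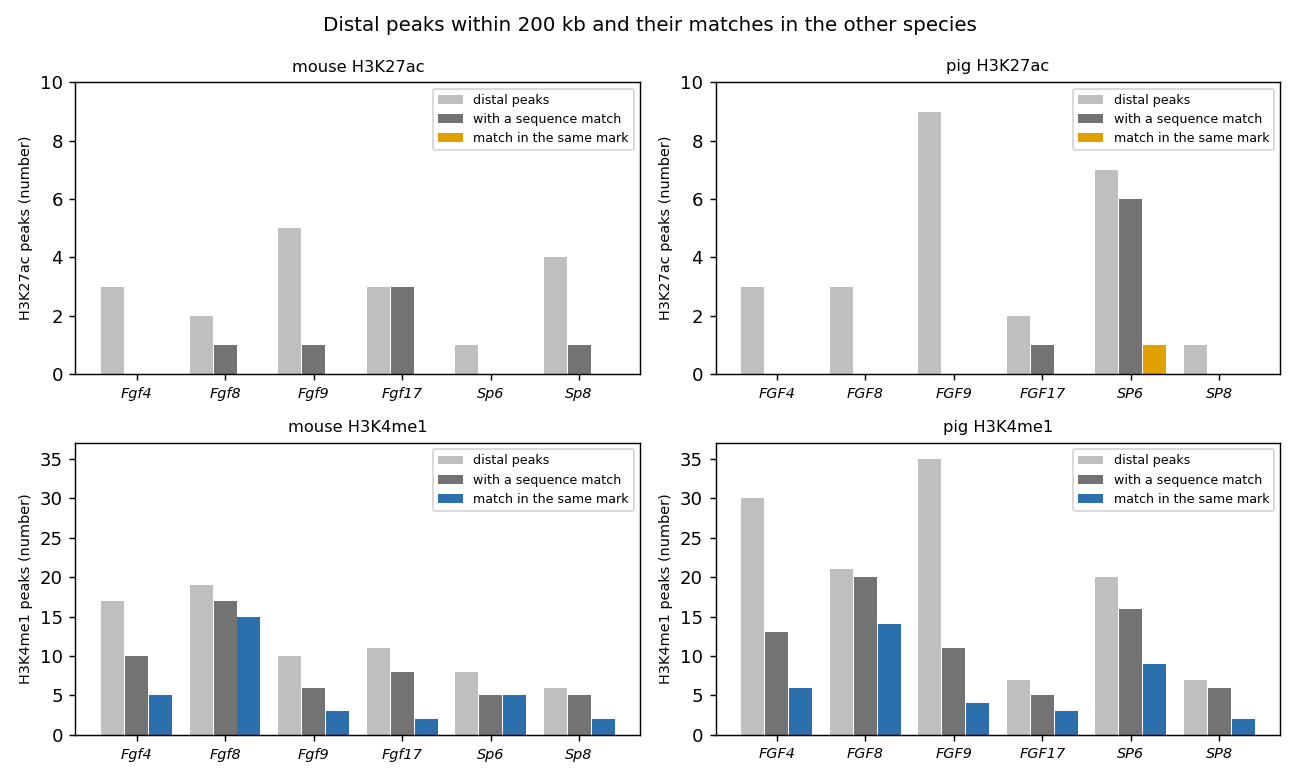
Number of distal peaks within 200 kb of each gene (light grey), of those with a sequence match in the other species' locus (dark grey) and of those with a match inside a peak of the same mark there (coloured), for H3K27ac (top) and H3K4me1 (bottom) in mouse (left) and pig (right). At Fgf8 the coloured H3K4me1 bars stand for 15 of 19 peaks in mouse and 14 of 21 in pig, and the coloured H3K27ac bar is present at SP6 alone.

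The Fgf8 neighbourhood held the most matched H3K4me1 peaks. Of its 19 mouse distal peaks, 17 matched the pig locus and 15 had a match in pig H3K4me1. Of its 21 pig distal peaks, 20 matched and 14 had a match in mouse H3K4me1. Counting only the best-scoring match of each mouse peak, 13 of 17 lay in pig H3K4me1. On the downstream side, which holds Fbxw4 and Dpcd, this was so for 12 of 13 mouse peaks, and on the upstream side for 1 of 4. The 12 downstream matches were 441 to 1805 bp long, at 74.1% to 88.0% identity with a median of 81.2%. The order of the peaks was kept, from 8.39 kb downstream in mouse to 176 kb. The body of Fbxw4, in which ridge enhancers of Fgf8 are known from mouse work, held 6 of the mouse distal H3K4me1 peaks, and the best-scoring match of each of the 6 lay in pig H3K4me1. They were centred 96.4, 114, 121, 127, 136 and 147 kb downstream of the Fgf8 5′ end. The pig FBXW4 body held 8 such peaks, and the best-scoring mouse match of 6 of them lay in mouse H3K4me1. The pig matches of the mouse peaks at 127 and 136 kb were 1805 bp at 85.6% and 648 bp at 88.0%, and lay 124 and 133 kb downstream in pig.

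Fgf8 had as many distal H3K27ac peaks as the median gene in mouse, 2, and 1 more than it in pig, 3. The 2 mouse distal H3K27ac peaks lay 178 and 194 kb downstream, in Dpcd and beyond it, and 1 of them had a pig match, in H3K4me1. The pig distal H3K27ac peaks were 307, 349 and 393 bp wide, lay 90.1 kb downstream in an intron of FBXW4, 5.60 kb upstream in NPM3 and 196 kb upstream, and had no mouse match. In mouse, an H3K4me3 peak of 3283 bp with H3K4me1 lay 66.8 kb downstream between Fgf8 and Fbxw4 with no annotated TSS.

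**Figure D3:**
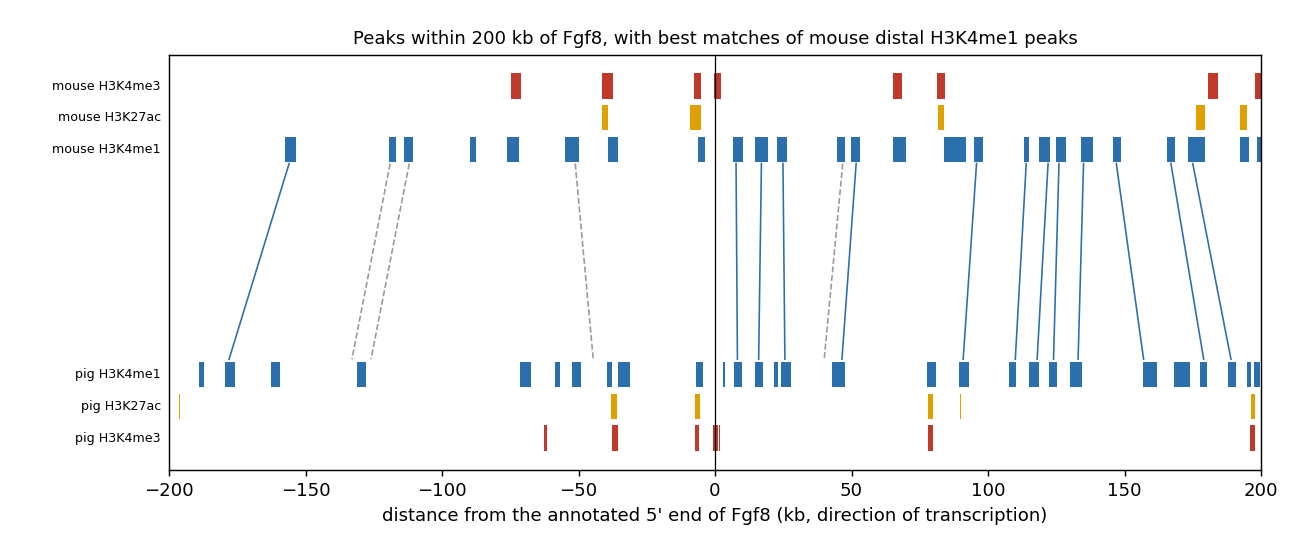
Peaks of the 3 marks within 200 kb of Fgf8 in mouse (top) and pig (bottom) against distance from the 5′ end in kb, downstream to the right. Lines join each mouse distal H3K4me1 peak to its best-scoring pig match, solid blue where it lies in pig H3K4me1 (13 peaks) and dashed grey where it does not (4 peaks), and the downstream lines do not cross.

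At each of the other 5 genes the number of mouse distal H3K4me1 peaks with a match in pig H3K4me1 was lower. The counts were 5 of 17 at Fgf4, 3 of 10 at Fgf9, 2 of 11 at Fgf17, 5 of 8 at Sp6 and 2 of 6 at Sp8. Less of those loci could be aligned at Fgf4 and Fgf9, with 4.03% and 5.48% of the mouse locus in aligned segments, than at Fgf8, with 18.3%. Fgf17, Sp6 and Sp8 had 17.7%, 18.8% and 13.5%. At Sp6 5 peaks matched, and all 5 had a match in pig H3K4me1. Fgf8 did not lead by the share of aligned segments, which include those at TSSs and in exons. Of the segments in mouse H3K27ac or H3K4me1, 54.1% at Fgf8 were in one of these marks in pig. The share was 60% at Fgf4, 76.5% at Fgf9, 53.3% at Fgf17, 64.6% at Sp6 and 37.5% at Sp8. At Sp8, 3 mouse distal H3K27ac peaks lay in the neighbouring Abcb5 gene, 54.2, 56.3 and 66.5 kb downstream, and 1 of them had a pig match of 103 bp, in no pig peak. The single pig distal H3K27ac peak there lay 172 kb downstream. At Fgf9 the mouse distal H3K27ac peak 137 kb downstream matched pig sequence 90.0 kb downstream in H3K4me1. A mouse H3K4me1 peak 91.5 kb upstream of Fgf9 matched pig sequence 65.9 kb upstream that reached into the edge of a pig H3K27ac peak. The mouse peak itself also overlapped the mouse H3K27ac peak centred 88.6 kb upstream. The pig H3K27ac peak had no mouse match of its own.

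**Figure D4:**
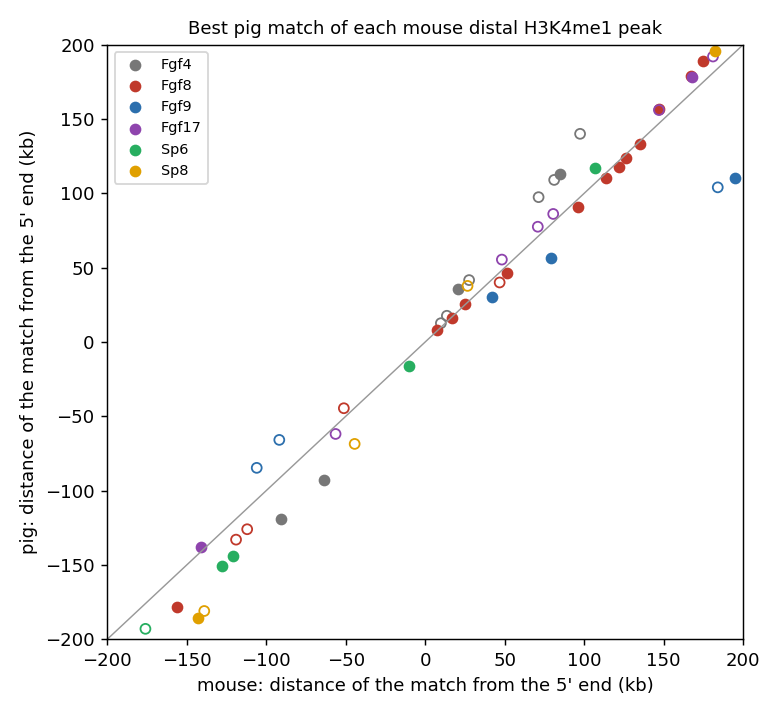
Distance from the 5′ end in kb of each mouse distal H3K4me1 peak's best-scoring match (horizontal) and of the matching pig sequence (vertical), coloured by gene, filled where the pig sequence lies in H3K4me1 (28 of 51) and open where it does not. All 51 points lie on the same side of the gene in both species, and the Fgf8 points downstream of the gene lie near the grey line of equal distance.

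The starts of the other genes of the pathway are given by list. Among 18 other FGF ligands annotated in each species, 14 in mouse and 12 in pig had H3K4me3, against 65.0% and 67.7% of all genes. H3K27ac was at 4 of them in each species, against 41.6% of all mouse and 48.8% of all pig genes. Among partners of the ridge in outgrowth, 10 of 16 in mouse and 10 of 15 in pig had H3K27ac. Of these, Fgf10, the mesenchymal ligand that keeps the ridge, had all 3 marks in mouse and H3K4me1 alone in pig. En1 had H3K4me3 and H3K27ac in mouse and H3K4me1 alone in pig. Rspo2, an enhancer of Wnt signalling, and Bmp7, a bone morphogenetic protein, had H3K27ac in pig and not in mouse. On the other lists, Fgfr2, Prrx1 and Trp63 also had H3K4me3 and H3K27ac in mouse and H3K4me1 alone in pig. Whether the annotated pig starts of listed genes correspond to the mouse starts was not tested. Among the 6 ridge genes the mouse 5′ end matched up to 4702 bp upstream of the pig start. Among 7 other Sp factors, 7 and 6 had H3K4me3 and 3 and 4 had H3K27ac, beside the same shares of all genes. Sp9, the factor most like Sp8 in the ridge, had H3K4me3 and H3K4me1 without H3K27ac in both species. Of 13 FGF receptors, feedback inhibitors and target genes, 11 in mouse and 10 in pig had H3K27ac, among them Dusp6, Spry4 and Etv4, which respond to FGF in the receiving cells. H3K27ac was at 5 of 14 mouse and 4 of 13 pig markers of ectoderm and ridge, against 41.6% and 48.8% of all genes. Markers of limb mesenchyme had it at 10 of 10 and 9 of 10, endothelial markers at 1 of 6 in each species, muscle precursor markers at 1 of 5 and 0 of 5, and genes of tissues outside the limb at 0 of 9 and 1 of 8. The lists differ in how many genes they hold and were not compared by a test.

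The genes most like each member were found over all orthologs by the Euclidean distance between their covered shares, in the 6 lists, of the 5 kb on each side of the 5′ end. Those of Fgf4 were Prph, Allc and Pnoc, at distances of 1.04 to 3.69 percentage points. Those of Fgf8 were Cbs, Flvcr2 and Dph2, at 4.74 to 6.04 points. Those of Fgf9 were Cacnb1, Nfatc4 and Cul7, all within 14.3 points, and those of Fgf17 were Sfrp5, Neurod1 and Asphd1 at 9.64 to 9.96 points. Those of Sp8 were Trib1, Srsf2 and Ccnd3 at 8.52 to 9.87 points. Those of Sp6 were Gstm3, Sycn and Ttll1 at 4.22 to 5.27 points, but the mouse profile of Sp6 is centred on its upstream start and held 1.78% H3K4me3, since the marked start lies 5173 bp downstream.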

How the data were processed

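Per the labels and the series' design text, the authors fixed forelimb chromatin with 1% formaldehyde, used 1 µg of antibody, sequenced pig H3K27ac and H3K4me3 libraries at 50 bp and the others at 100 bp cropped to 50, aligned to GRCm38/mm10 and Sscrofa11.1, and called broad peaks with an irreproducible discovery rate below 0.01. Per the submitters' processing notes the tools were Bowtie2 2.3.5, Trimmomatic 0.39, deepTools 3.5, FastQC 0.11.9 and SAMtools 1.9; which program called the peaks was not given in the sources used here. The deposited lists hold peak positions, 1 consensus list per species and mark, so the depth is unknown.

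Peaks on assembled chromosomes were placed on RefSeq annotation of the same builds with Python 3.11.15, numpy 2.4.6 and pandas 2.3.3. Distal peaks were matched to the other species' 400 kb with blastn 2.17.0, repeats masked, at an E value of 1e-10 or lower, and sequence was read with samtools 1.23.1. The interval counts and the search were tested on simulated data. Alternatives changed the TSS window, the neighbourhood, the peaks kept and the match limits. The genes, lists and settings were chosen with earlier results of these data known. Named genes are the members, neighbours that own a nearby peak, listed genes and the 3 most alike orthologs per member.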

Additional observations from a re-analysis of the deposited data

How the results depend on the processing

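Over 103 alternative settings of 33 counts and shares, 87 values stayed within 1.5 times the reported one and 16 moved further. Keeping the wider 50% of each list, which removes peaks by construction, left 31 H3K4me3, 19 H3K27ac and 62 H3K4me1 peaks in the mouse neighbourhoods and 34 H3K4me3 and 112 H3K4me1 peaks in the pig ones, a mouse H3K4me3 share of 5.18%, and 7 mouse and 12 pig distal H3K27ac peaks. With the 5′ end alone in place of every annotated TSS, 1 mouse gene had H3K27ac and 3 had H3K4me1. With a window of 0.5 kb, 0 pig genes had H3K27ac. With 50% of the window required to be covered, 0 pig genes had H3K27ac and 2 had H3K4me3. The number of genes in the same state in both species, 5 as reported, was 2 with a window of 0.5 kb, against 43.3% of orthologs. It was 3 with the 5′ end alone, against 42.5%, and 2 with 50% of the window covered, against 46.9%. These settings were applied to it after seeing the data. Placing pig starts also where mouse starts match, an alternative chosen after seeing the data, like the search with H3K4me1 peaks, gave the reported counts of 4, 2 and 4 pig genes with H3K4me3, H3K27ac and H3K4me1. That setting keeps the annotated pig starts and adds to them, so no count could fall under it. At an E value of 1e-05, 9 mouse distal H3K27ac peaks matched the pig locus, 0 of them in pig H3K27ac.

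No paired analysis was possible because each list is a consensus over replicates, and no setting leaves out a replicate, since none has a list of its own. An absent peak says only that none was called in whole forelimb at an unknown depth. A sequence without a match was searched for within 200 kb only.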
